A study of Homo sapiens with 31 samples.

Results

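The genes described here are 41 listed genes of glycolysis and of the transcriptional response to low oxygen, followed across 8 groups of cultured human intestinal cells. A listed gene was measured where a probe set of the array named it alone, and the brightest such probe set by the mean of all 31 arrays stood for the gene. This gave 38 of the 41 listed genes, of 22395 genes measured in this way. CA9 and SLC16A3 were not analysed here, and BNIP3 was left out because its probe set also named BNIP3P1.

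Caco-2 is an established line from a human colorectal adenocarcinoma that forms a polarised monolayer resembling small intestinal enterocytes. It was cultured for 21 days on static Transwell inserts (15 arrays) or in a gut-on-chip, a microfluidic device whose medium flowed at 100 µL/h (16 arrays), and the 2 systems are called Transwell and chip below. The cells were then treated for 6 h with TiO2 or ZnO nanomaterial, or with the metal-free dispersion of either nanomaterial, named TiO2-control and ZnO-control medium, and the chip's flow was stopped for those 6 h. TiO2 was given at 50 µg/mL on Transwell and 100 µg/mL in the chip, and ZnO at 10 µg/mL on Transwell and 80 µg/mL in the chip, concentrations the labels describe as modelled to deposit equally. Each of the 8 groups of system and medium had 4 arrays, except TiO2 on Transwell with 3. The labels do not say whether replicates were separate cultures, so p-values measure the spread between these samples, which may be technical. An exposed group and its own control medium are called a set, and the labels do not say whether the TiO2 set and the ZnO set were cultured at one time, so that medium and set cannot be told apart.

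Glycolysis breaks glucose down to pyruvate in the cytosol, and lactate dehydrogenase turns pyruvate into lactate when mitochondria do not take it up. The HIF transcription factors, a labile alpha subunit paired with ARNT, raise many of these enzymes when oxygen is low, because the prolyl hydroxylases EGLN1 and EGLN3 need oxygen to mark the alpha subunit for degradation. In the intestine the epithelium lies along a steep oxygen gradient, and HIF signalling there is known for its part in barrier function and metabolism.

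Values were RMA-normalised log2 intensities, on which a difference of 1.00 is a doubling, and array medians lay between 3.24 and 3.33. Epithelial markers were present as the label says: the mean of 12 markers was 8.54 to 8.95 on Transwell arrays and 7.59 to 8.52 on chip arrays, with EPCAM at 11.6 and CDH1 at 12.1 over all arrays. Of 12 measured markers of stromal, immune and endothelial cells, 5 to 7 lay below every array median in each group, the leukocyte marker PTPRC among them at 1.59 over all arrays, and the mean of the 12 was 3.90 to 4.53. Others of the 12 were well above the medians, CD68 at 11.1, LUM at 7.11, COL1A1 at 5.87 and CD14 at 5.69. Chip TiO2 replicate 4 and chip TiO2-control replicate 4 stood apart from their groups and went against their labels. Principal component 3 separated the other arrays of these groups. On it the library labelled chip TiO2 replicate 4 lay at -14.0 against 16.7 to 20.1 for the other TiO2 arrays. The library labelled chip TiO2-control replicate 4 lay at 7.81 against -19.4 to -14.9 for the other TiO2-control arrays. The same component spread the arrays labelled chip ZnO from -24.5 to 25.5, so it is not particular to TiO2. Both replicate 4 arrays were kept under their labels, and counts and calls of members that change without them are given both ways. They were singled out for going against the TiO2 minus control difference, so leaving them out tends to enlarge that difference.

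The promoters come first, because the HIF complex binds a short core, and the printed stretches show where that core lies in the genes whose values are given below. In RefSeq windows of GRCh38.p14, from 250 bases before to 50 bases after a start site, 33 of the 38 members had at least 1 window. The core was searched as ACGTG or GCGTG on both strands, so the letters may read CACGT or CACGC, and a CACGTG palindrome counts on both strands. It lay in 31 of these 33 genes (93.9%), against 52.4% of 27305 genes with a window, measured here or not. Per window the shares were 66.1% of 62 member windows and 48.4% of all windows, and the gene shares depend on how many alternative starts a gene has. ACGTG alone lay in 60.6% of the members and 24.9% of all genes. Genes higher in the chip held the core in 15 of 16 cases, genes lower in the chip in 7 of 7, and genes that did not pass in 9 of 10. The members were listed for glycolysis or the response to low oxygen, so a high share may come with the list itself. A match describes letters, not a bound site.

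The whole window is shown for ENO2 (chr12:6914330-6914629, plus strand) and ADM (chr11:10304823-10305122, plus strand), the members with the largest rise, and for EGLN3 (chr14:33951025-33951324, minus strand), which rose and has no core in its window. Capitals mark the core, at -118 from the start site in ENO2 and at -101 in ADM, where the first base of the transcript is 1.

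ENO2: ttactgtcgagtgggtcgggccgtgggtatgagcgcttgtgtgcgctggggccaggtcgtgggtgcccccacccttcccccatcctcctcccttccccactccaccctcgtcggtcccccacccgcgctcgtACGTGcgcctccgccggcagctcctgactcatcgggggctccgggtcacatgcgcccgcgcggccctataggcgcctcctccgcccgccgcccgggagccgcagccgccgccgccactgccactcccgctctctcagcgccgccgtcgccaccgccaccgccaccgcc
ADM: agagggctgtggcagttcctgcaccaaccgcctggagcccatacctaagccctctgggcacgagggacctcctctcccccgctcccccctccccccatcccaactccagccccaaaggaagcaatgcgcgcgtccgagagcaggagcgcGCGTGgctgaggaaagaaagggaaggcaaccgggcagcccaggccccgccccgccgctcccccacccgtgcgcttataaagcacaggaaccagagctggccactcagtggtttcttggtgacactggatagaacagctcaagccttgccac
EGLN3: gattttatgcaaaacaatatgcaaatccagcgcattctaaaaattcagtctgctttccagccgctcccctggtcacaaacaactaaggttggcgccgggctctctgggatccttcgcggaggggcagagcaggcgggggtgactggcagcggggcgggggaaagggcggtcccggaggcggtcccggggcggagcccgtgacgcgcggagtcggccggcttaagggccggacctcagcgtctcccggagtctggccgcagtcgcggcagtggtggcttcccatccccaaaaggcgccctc

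Shorter stretches around 1 core are shown for the next members with a window by size of rise, and, chosen after their values were seen, for PDK1 and EGLN1, which fell. Their places are HK1 (chr10:69318903-69318932, plus strand, core at -149), DDIT4 (chr10:72273787-72273816, plus strand, core at -125), PFKP (chr10:3069038-3069067, plus strand, core at -139), ANKRD37 (chr4:185396686-185396715, plus strand, core at -143), PDK1 (chr2:172556061-172556090, plus strand, core at -17), EGLN1 (chr1:231422283-231422312, minus strand, core at -13). HK1 has 7 windows from alternative starts, of which 2 hold the core. PFKP and PDK1 also have more than 1 window, and not all of these hold the core. Only the core named here is in capitals, and PDK1 holds a further match in lower case.

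HK1: accgaccgtcccCACGCctgccgccccgcg
DDIT4: agaacgttgcttACGTGcgcccggagtcca
PFKP: ccacgagcgcctACGTGatgcccggcccgt
ANKRD37: cagtgtttgtgtACGTGcggccgtggcggg
PDK1: cctgctgcccgcCACGTccctcacgtacca
EGLN1: gggccgtggtgtACGTGcagagcgcgcaga

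In control media 19 of the 38 members were higher in the chip than on Transwell and 7 were lower, as the mean over both control media (limma, Benjamini-Hochberg adjusted p below 0.05 over all genes). Among all 22395 genes 14.6% were higher and 18.9% lower by the same rule. The share of members that rose (50.0%) thus lay above the background and the share that fell (18.4%) lay near it. Genes near background, where arrays understate differences, count among all genes. Of 34 other HIF targets 13 were higher and 10 lower, and of 26 other glycolysis and pyruvate genes 7 and 8. The members were also chosen with earlier results of these data known, so the excess is not shown to be particular to them. The median member differed by 0.22, against -0.00 for all genes. The rise spanned glucose transporters, hexokinases and secreted targets, whereas PDK1, PFKFB4, PGM1 and EGLN1, which respond to the same factor in many cells, were lower. On 16 control arrays the 8 chip values lay above all 8 Transwell values for 11 members (5.08% of all genes) and below them for 3 (6.86% of all genes). RNA was taken from whole cultures, so fewer cells expressing a gene and less of its RNA per cell cannot be told apart.

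Other programmes moved in the same arrays. Of 10 integrated stress response genes 8 were higher and 0 lower in the chip by limma, with the same counts at an unadjusted p below 0.05, among them ATF3 (2.43), DDIT3 (1.99) and PPP1R15A (1.81). Their mean was 6.40 to 7.06 on Transwell arrays and 7.47 to 8.14 on chip arrays. Of 12 epithelial and enterocyte markers 3 were higher, the keratin KRT20 (0.96) among them, and 6 lower, with FABP2 and SI, markers of mature enterocytes, the farthest. SI fell by 3.36, while FABP2 had group means of 1.68 to 2.20 in the chip, below every array median, so that its difference of -4.25 is a lower bound in size at best. Of 12 measured markers of other cell types 1 was higher (CD68, 0.64) and 3 passed as lower, LUM (-0.98), PDGFRB (-0.88) and CD3E, which was not shown above background in any group. The part of these changes in the members' differences was not tested.

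**Figure D1:**
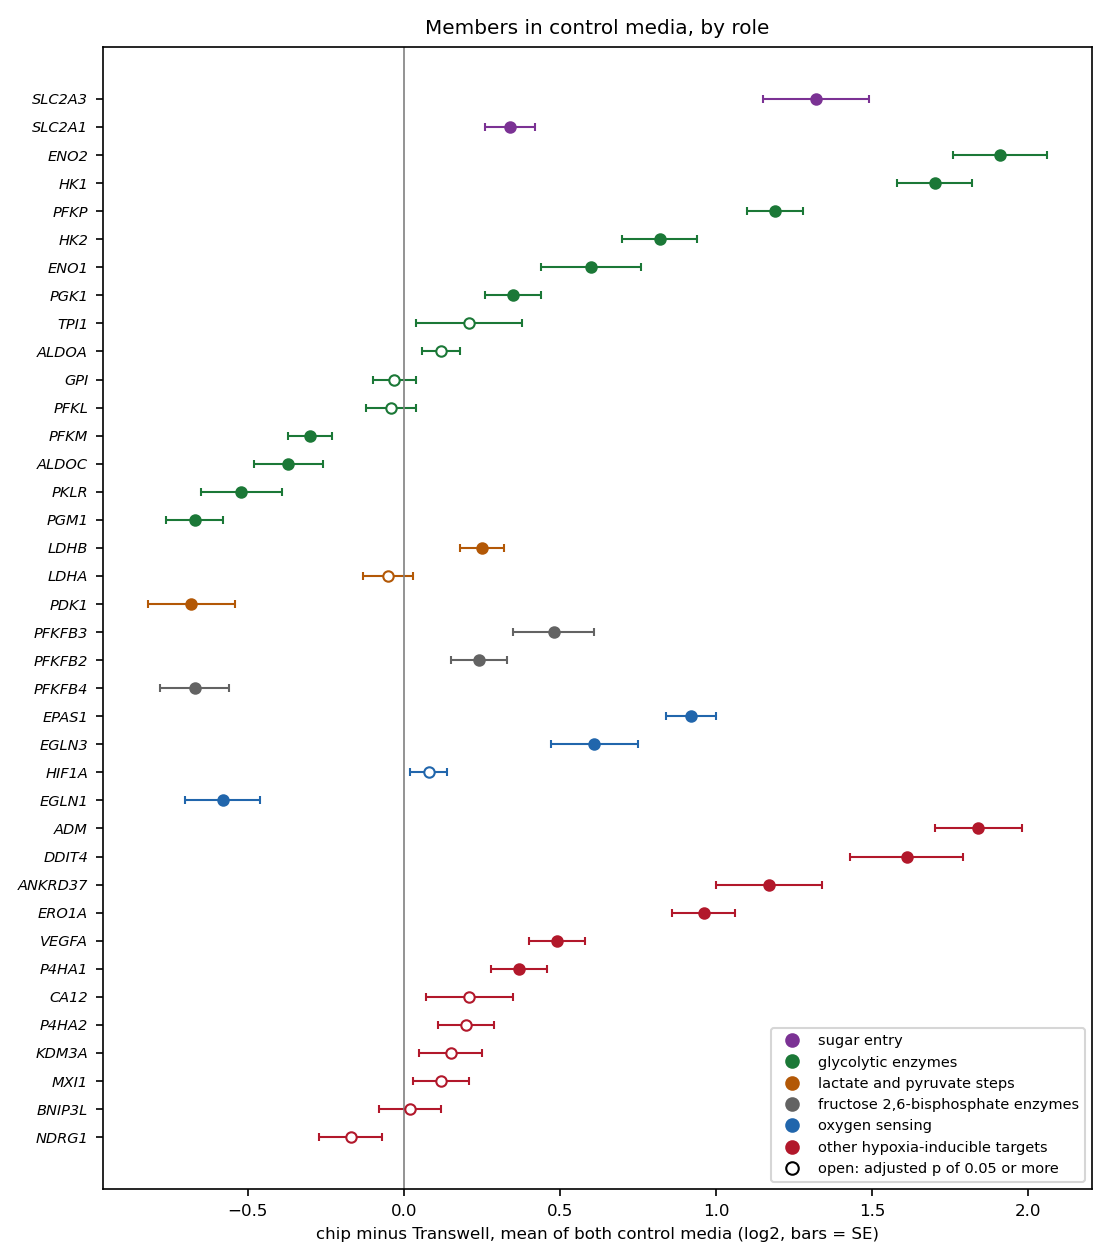
Difference between chip and Transwell for the 38 members on the x axis (log2, mean of both control media, bars show the SE of the fit), grouped by role on the y axis; filled points have an adjusted p below 0.05. ENO2 at 1.91 and ADM at 1.84 lie farthest to the right, PDK1 at -0.68 farthest to the left, and LDHA and HIF1A lie near 0.

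Both glucose transporters were higher in the chip. SLC2A3, the high-affinity transporter GLUT3, read 7.65, 7.82, 7.49 and 7.56 in TiO2-control medium and 6.80, 7.38, 7.25 and 7.17 in ZnO-control medium on Transwell (replicates 1 to 4, as in all such lists). In the chip it read 9.18, 8.08, 8.65 and 8.50 in TiO2-control medium and 8.88, 9.04, 8.58 and 8.75 in ZnO-control medium. Each chip value lay above each Transwell value, and the ZnO-control arrays on Transwell were lower than the TiO2-control arrays there. The difference was 1.32 ± 0.17 (SE), a 2.49-fold rise with adjusted p = 3.36e-07 by limma. SLC2A1, the widely expressed transporter GLUT1, rose by 0.34 ± 0.08 from an already high level (adjusted p = 0.000731 by limma). Its control arrays read 11.10 to 11.26 on Transwell and 11.29 to 11.69 in the chip. Taken by single medium it passed as higher in 1 of 4, ZnO-control medium, and over all arrays the systems overlapped.

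Of the 14 glycolytic enzymes 6 were higher, 4 lower and 4 did not pass. The largest rise of all members was that of ENO2, the enolase best known from neurons. On Transwell it read 4.33, 4.80, 4.81 and 4.41 in TiO2-control medium and 3.97, 4.00, 4.12 and 4.23 in ZnO-control medium. Chip arrays gave 6.92, 6.50, 5.62 and 5.77 in TiO2-control medium and 6.59, 6.26, 5.73 and 6.53 in ZnO-control medium. The lowest chip control value was 5.62 and the highest Transwell control value 4.81, so the groups were separate, and the rise of 1.91 ± 0.15 was 3.75-fold (adjusted p = 5.06e-11). HK1, the hexokinase that commits glucose to metabolism in most tissues, read 4.44, 4.94, 4.27 and 4.85 in TiO2-control medium and 4.43, 4.13, 4.18 and 4.64 in ZnO-control medium on Transwell. Its chip values were 5.87, 6.01, 6.26 and 6.22 in TiO2-control medium and 6.27, 6.71, 6.14 and 6.01 in ZnO-control medium. These did not overlap either, with a rise of 1.70 ± 0.12 (3.25-fold, adjusted p = 8.46e-12). HK2, the hypoxia-inducible isoform, rose by 0.82 ± 0.12 (adjusted p = 3.49e-06), with 7.64 to 8.38 on Transwell control arrays and 8.53 to 9.20 in the chip.

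PFKP was the one isoform of phosphofructokinase, the main control point of glycolysis, that rose. It read 8.81, 8.85, 8.64 and 8.67 in TiO2-control medium and 8.05, 8.28, 8.02 and 8.24 in ZnO-control medium on Transwell. The chip arrays gave 9.35, 9.40, 9.56 and 9.77 in TiO2-control medium and 9.86, 9.63, 9.66 and 9.81 in ZnO-control medium. No values overlapped, and the rise was 1.19 ± 0.09 (2.27-fold, adjusted p = 1.38e-11). PFKM, the muscle isoform, fell by 0.30 with all chip control arrays below all Transwell ones (adjusted p = 0.00183), and PFKL, the liver isoform, differed by -0.04 ± 0.08 and did not pass (adjusted p = 0.777). The differences between isoforms were not tested against each other.

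ENO1, the enolase of most tissues, rose by 0.60 ± 0.16 (adjusted p = 0.00417), with control arrays that overlapped between the systems. PGK1, which makes the first ATP of the payoff phase, rose by 0.35 ± 0.09 (adjusted p = 0.00325). PKLR, the pyruvate kinase of liver and red cells, fell by 0.52 (adjusted p = 0.00233), and ALDOC, an aldolase best known from brain, fell by 0.37 (adjusted p = 0.00683). PGM1, which links glucose 1-phosphate from glycogen to the pathway, showed the largest fall among the enzymes. Its Transwell values were 8.50, 8.56, 8.41 and 8.54 in TiO2-control medium and 8.05, 8.39, 8.38 and 8.23 in ZnO-control medium. In the chip they were 8.04, 8.17, 7.94 and 7.46 in TiO2-control medium and 7.59, 7.58, 7.44 and 7.52 in ZnO-control medium. Only the Transwell ZnO-control replicate 1, at 8.05, lay below the highest chip control value, 8.17, and the fall was -0.67 ± 0.09 (adjusted p = 4.6e-07). The 4 enzymes that did not pass were GPI (-0.03 ± 0.07), ALDOA (0.12 ± 0.06), TPI1 (0.21 ± 0.17) and PFKL. ALDOA, TPI1, ENO1 and PGK1 have 2 to 4 named pseudogenes each, and probes may read copies of similar sequence. The same holds for SLC2A3 with 3 named pseudogenes, PDK1 with 2, and HK2, HIF1A, EGLN1, EGLN3 and KDM3A with 1 each.

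At the fate of pyruvate the members diverged. LDHA, which makes lactate and is a textbook HIF target, did not pass (-0.05 ± 0.08, adjusted p = 0.715), with chip control arrays from 7.21 to 7.56 and Transwell control arrays from 7.26 to 7.60. LDHB, the isoform that favours pyruvate, rose by 0.25 ± 0.07 (adjusted p = 0.00409). LDHA has 6 named pseudogenes and LDHB has 3. PDK1, a kinase that shuts off pyruvate dehydrogenase, was lower in the chip. It read 10.09, 10.18, 10.15 and 10.11 in TiO2-control medium and 9.25, 9.46, 9.52 and 9.49 in ZnO-control medium on Transwell. The chip values were 9.62, 9.49, 9.30 and 8.67 in TiO2-control medium and 8.71, 9.18, 9.22 and 8.61 in ZnO-control medium. The TiO2-control arrays on Transwell stood above all other control arrays, while ZnO-control Transwell arrays and chip arrays overlapped. The fall was -0.68 ± 0.14 (adjusted p = 0.000336), and -0.58 ± 0.13 without both replicate 4 arrays of the chip TiO2 set (adjusted p = 0.000818).

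The 3 bifunctional enzymes that set fructose 2,6-bisphosphate, the activator of phosphofructokinase, did not move as 1 group. PFKFB3, the isoform with the strongest kinase activity, rose by 0.48 ± 0.13 (adjusted p = 0.00528) and PFKFB2 rose by 0.24 ± 0.09, at the edge of the threshold (adjusted p = 0.0497). In TiO2-control medium the PFKFB2 values of the systems overlapped, with 7.64 to 7.92 on Transwell and 7.72 to 7.93 in the chip. In ZnO-control medium PFKFB2 read 6.80 to 7.26 on Transwell and 7.34 to 7.74 in the chip. PFKFB4 fell by 0.67 (adjusted p = 8.87e-06). PFKFB4 read 7.03, 7.27, 7.08 and 7.41 in TiO2-control medium and 6.49, 6.37, 6.64 and 6.50 in ZnO-control medium on Transwell. The chip arrays read 6.62, 6.12, 6.44 and 5.96 in TiO2-control medium and 6.08, 5.99, 6.07 and 6.16 in ZnO-control medium. As for PDK1, the Transwell arrays in TiO2-control medium were the highest, and ZnO-control Transwell arrays overlapped with the chip.

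Of the oxygen-sensing members EPAS1 and EGLN3 rose and EGLN1 fell. HIF1A, which is controlled mainly at the protein level, did not pass (0.08 ± 0.06, adjusted p = 0.391), with control arrays between 9.66 and 10.00 in both systems. EPAS1, which encodes HIF-2 alpha, read 8.30, 8.16, 8.20 and 8.47 in TiO2-control medium and 8.42, 8.47, 8.39 and 8.60 in ZnO-control medium on Transwell. In the chip it gave 8.93, 9.34, 9.19 and 9.41 in TiO2-control medium and 9.49, 9.22, 9.20 and 9.56 in ZnO-control medium. All chip values lay above all Transwell values, and the rise was 0.92 ± 0.08 (1.89-fold, adjusted p = 1.68e-10). EGLN1 is the main prolyl hydroxylase. Its Transwell values were 8.89, 8.86, 8.81 and 9.0 in TiO2-control medium and 8.64, 8.88, 8.82 and 8.79 in ZnO-control medium. Its chip values were 8.59, 7.69, 8.27 and 8.19 in TiO2-control medium and 8.60, 8.18, 8.25 and 8.24 in ZnO-control medium. The highest chip value (8.60) lay just under the lowest Transwell value (8.64), and the fall was -0.58 ± 0.12 (adjusted p = 0.000392). EGLN3, a hydroxylase that HIF itself induces, rose by 0.61 ± 0.14 (adjusted p = 0.000845), but its Transwell means of 2.80 to 3.09 lay below every array median, so that its Transwell level was not shown to be above background and its rise is a lower bound at best.

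Of the 12 other hypoxia-inducible targets 6 were higher and 0 lower by limma, and 7 were higher and 0 lower at an unadjusted p below 0.05. ADM, a secreted peptide that dilates vessels and tightens barriers, read 6.13, 5.97, 5.90 and 5.71 in TiO2-control medium and 5.91, 5.66, 5.80 and 5.76 in ZnO-control medium on Transwell. The chip gave 7.60, 7.68, 7.51 and 7.58 in TiO2-control medium and 7.44, 8.73, 7.28 and 7.74 in ZnO-control medium. Every chip value was at least 7.28 and every Transwell control value at most 6.13, and the rise was 1.84 ± 0.14 (3.58-fold, adjusted p = 1.76e-11). DDIT4, an inhibitor of mTORC1 that also answers to other stresses, read 7.92, 8.16, 8.0 and 8.35 in TiO2-control medium and 7.85, 8.19, 8.0 and 7.92 in ZnO-control medium on Transwell. Chip values were 10.05, 9.61, 9.88 and 9.31 in TiO2-control medium and 9.11, 10.56, 9.03 and 9.68 in ZnO-control medium. The chip arrays spread widely, from 9.03 to 10.56, but lay above all Transwell arrays, which reached 8.35, and the rise was 1.61 ± 0.18 (3.04-fold, adjusted p = 2.42e-08).

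ANKRD37, a small ankyrin-repeat protein induced by HIF-1, also showed no overlap. On Transwell it read 6.53, 6.64, 6.41 and 6.48 in TiO2-control medium and 6.47, 5.97, 5.98 and 6.26 in ZnO-control medium. The chip arrays read 7.85, 7.11, 7.68 and 6.98 in TiO2-control medium and 8.09, 7.81, 6.78 and 7.77 in ZnO-control medium. Its rise was 1.17 ± 0.17 (adjusted p = 1.59e-06). ERO1A, the oxidase that drives disulphide bond formation in the endoplasmic reticulum, rose by 0.96 ± 0.10 (adjusted p = 1.81e-08), with 8.78 to 9.59 on Transwell control arrays and 9.84 to 10.49 in the chip. VEGFA, the angiogenic growth factor, rose by 0.49 ± 0.09 (adjusted p = 8.37e-05) and P4HA1, a collagen prolyl hydroxylase subunit, by 0.37 ± 0.09 (adjusted p = 0.00113). The members that did not pass were P4HA2 (0.20 ± 0.09), CA12 (0.21 ± 0.14), KDM3A (0.15 ± 0.10), MXI1 (0.12 ± 0.09), NDRG1 (-0.17 ± 0.10) and the mitophagy receptor BNIP3L (0.02 ± 0.10). P4HA2 passed without both replicate 4 arrays of the chip TiO2 set (0.26 ± 0.09, adjusted p = 0.0257), which made 20 members higher and 7 lower. Of all genes 14.8% were then higher and 19.6% lower.

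**Figure D2:**
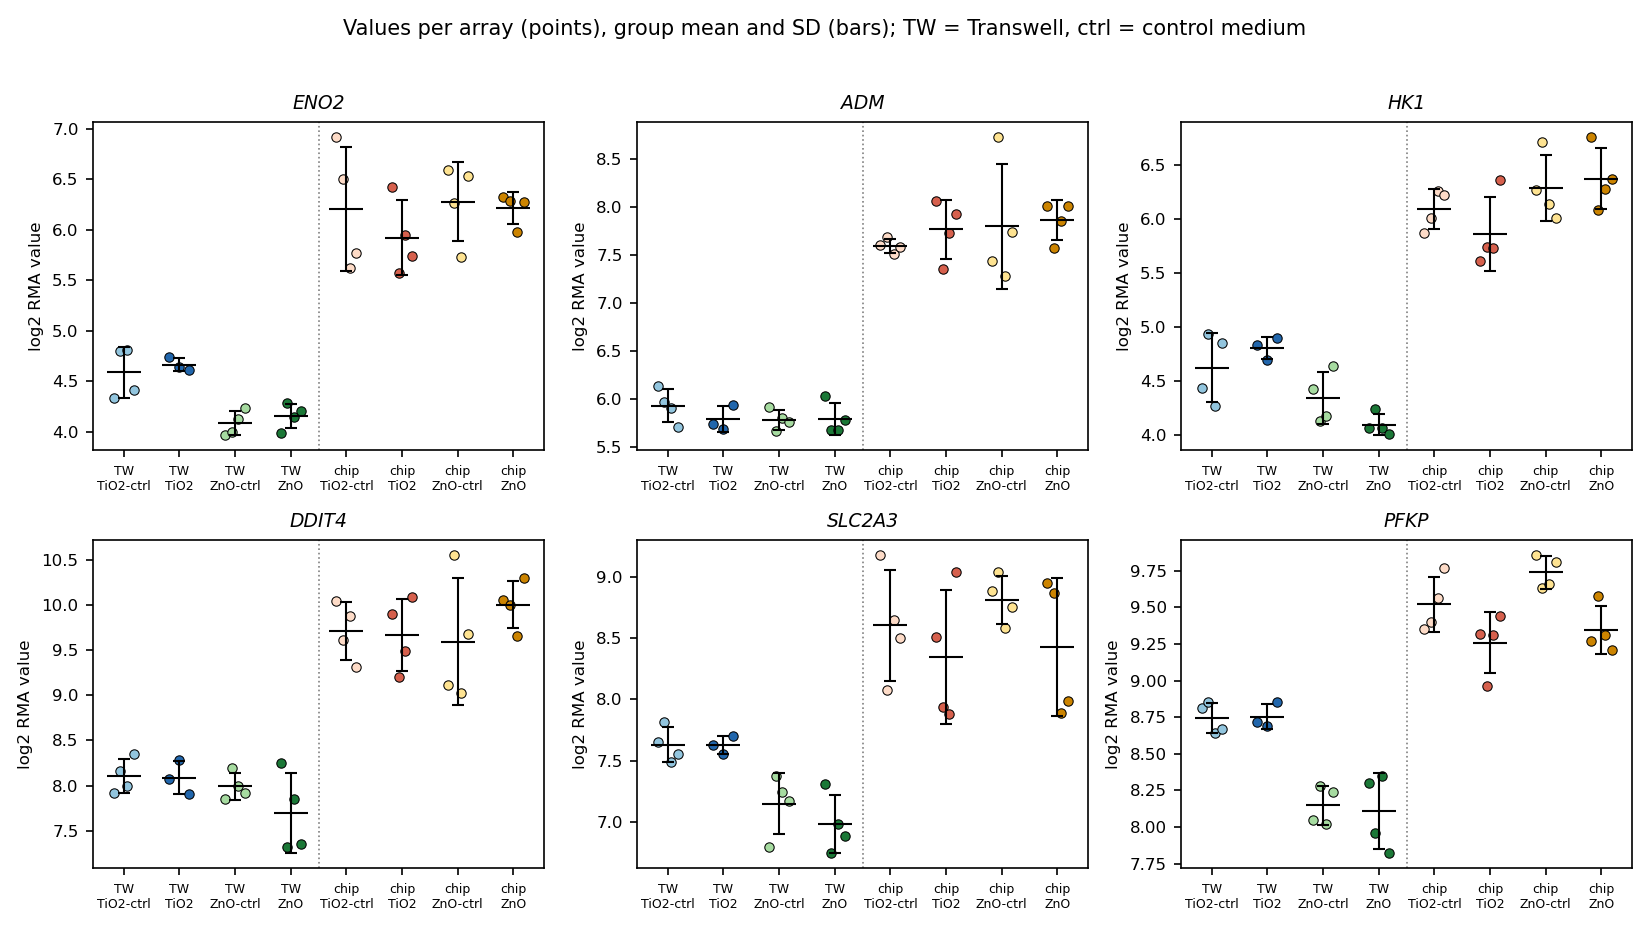
Log2 values of the 6 members with the largest difference between systems, 1 point per array in the 8 groups (Transwell left and chip right of the dotted line), with group mean and SD. For ENO2, ADM, HK1, DDIT4, SLC2A3 and PFKP every chip array lies above every Transwell array, for ENO2 from 5.57 up against at most 4.81.

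Over all 31 arrays, exposed ones included, 9 members lay in the chip wholly above Transwell (2.91% of all genes) and 0 wholly below (3.8% of all genes). The 9 were SLC2A3, HK1, PFKP, ENO2, EPAS1, ADM, ANKRD37, DDIT4 and ERO1A. The exposed arrays are separate from the control arrays, and of the 19 members higher in control media 10 also passed as higher among TiO2-exposed arrays and 16 among ZnO-exposed arrays. Of all 3260 genes higher in control media 44.3% and 69.1% passed again in this way, so that the members' 10 and 16 of 19 are read against a large general carry-over. By sign 18 and 19 of the 19 were higher, against 90.4% and 94.9% of those genes. Of the 7 lower members 5 passed as lower with TiO2 and 1 with ZnO, against 45.1% and 69.9% of all 4235 genes lower in control media. By sign 7 and 6 of the 7 were lower, against 92.8% and 95% of those genes. Doses differed between the systems in these exposed groups.

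Taken medium by medium, TiO2-control medium had 13 members higher in the chip and 7 lower (background 9.42% and 13.5% of all genes), and ZnO-control medium had 20 higher and 5 lower (12.3% and 14.9%). With TiO2 there were 11 higher and 7 lower (7.92% and 10.2%), and with ZnO 21 higher and 1 lower (13.3% and 16.5%). Without both replicate 4 arrays the counts in TiO2-control medium were 16 higher and 6 lower (background 9.49% and 14.1%). With TiO2 they then were 10 higher and 6 lower (8.03% and 10.1%). Passing as higher in all 4 media were HK1, PFKP, ENO2, EPAS1, ADM, ANKRD37, DDIT4 and ERO1A, 8 of 38 members against 4.18% of all genes. PGM1 was the 1 member lower in all 4, against 5.5% of all genes. For ADM the 4 differences were 1.66 in TiO2-control medium, 2.02 in ZnO-control medium, 1.98 with TiO2 and 2.08 with ZnO. ENO2 gave 1.62 in TiO2-control medium, 2.20 in ZnO-control medium, 1.26 with TiO2 and 2.06 with ZnO. For DDIT4 the 4 values were 1.61 in TiO2-control medium, 1.61 in ZnO-control medium, 1.58 with TiO2 and 2.31 with ZnO. HK1 gave 1.46 in TiO2-control medium, 1.94 in ZnO-control medium, 1.05 with TiO2 and 2.28 with ZnO, and SLC2A3 gave 0.97 in TiO2-control medium, 1.66 in ZnO-control medium, 0.71 with TiO2 and 1.44 with ZnO. All of these passed except that of SLC2A3 with TiO2 (adjusted p = 0.0576). PGM1 gave -0.60 in TiO2-control medium, -0.73 in ZnO-control medium, -0.80 with TiO2 and -0.65 with ZnO, a narrow range beside the SE of 0.12 to 0.13. PDK1 gave -0.86 in TiO2-control medium, -0.50 in ZnO-control medium, -1.20 with TiO2 and -0.49 with ZnO, of which the first and the third passed.

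The difference between systems was not the same in both control media for 3 members, CA12, MXI1 and PFKP. Of these, 2 had a larger value in ZnO-control medium (background 1.69%) and 1 a smaller one (1.05%). Medium and set cannot be told apart here. CA12, a membrane carbonic anhydrase, had a chip minus Transwell difference of 0.99 in TiO2-control medium and -0.57 in ZnO-control medium. The difference of these was -1.56 ± 0.28 (adjusted p = 0.00259). MXI1, an antagonist of MYC, had -0.29 and 0.53, and the media differed by 0.82 ± 0.17 (adjusted p = 0.00868). PFKP had 0.78 and 1.59, which differed by 0.81 ± 0.18 (adjusted p = 0.0115). The same 3 passed without both replicate 4 arrays.

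These contrasts share arrays with the comparison of the 2 sets, in which the Transwell cultures moved. On Transwell 9 members were lower and 1 higher in ZnO-control than in TiO2-control medium (background 3.76% and 2.88%). CA12 was the 1 that rose, reading 7.07, 7.11, 7.04 and 7.27 in TiO2-control and 8.14, 8.14, 8.24 and 8.29 in ZnO-control medium. The arrays were separate, and the rise was 1.08 ± 0.20 (adjusted p = 0.00122). MXI1 fell from 6.16, 6.24, 6.06 and 6.22 to 5.06, 5.18, 5.44 and 5.24, by 0.94 (adjusted p = 1.99e-05), again with no overlap. PDK1 and PFKFB4, whose control arrays are given above, fell by 0.71 (adjusted p = 0.0317) and 0.70 (adjusted p = 0.00429). BNIP3L, which removes mitochondria, read 10.19, 10.24, 10.22 and 10.21 in TiO2-control medium and 9.31, 9.50, 9.56 and 9.55 in ZnO-control medium. That fall was -0.73 ± 0.14 (adjusted p = 0.00148). The others that fell were PFKFB2 (-0.65), ALDOC (-0.63), PFKP (-0.59), NDRG1 (-0.56) and the histone demethylase KDM3A (-0.47). Without Transwell TiO2-control replicate 3 only 6 of the 10 passed, and ALDOC, PDK1, KDM3A and NDRG1 did not (adjusted p = 0.0532, 0.0757, 0.0606 and 0.0767).

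The exposed Transwell arrays, which are other arrays of the same 2 sets, were set against each other after the control arrays had been seen. There 12 members were lower and 1 higher with ZnO than with TiO2 (background 4.34% and 3.99%). CA12 rose by 1.11 ± 0.22, with 7.12, 7.08 and 7.25 in TiO2 and 8.32, 8.33, 8.31 and 8.08 in ZnO. MXI1 fell by 1.19, from 6.21, 6.21 and 5.94 to 5.10, 4.72, 5.10 and 4.82. In both genes the sets stayed apart. PFKFB4 (-1.04), PDK1 (-0.99), NDRG1 (-0.87), BNIP3L (-0.86), KDM3A (-0.84), ALDOC (-0.82), HK2 (-0.79), HK1 (-0.72), PFKP (-0.64), PFKL (-0.44) and PFKFB2 (-0.58) also fell. Over control and exposed arrays together, the 8 Transwell arrays of the ZnO set lay wholly below the 7 of the TiO2 set for 12 members (5.37% of all genes) and wholly above for CA12 (5.09% of all genes). In the chip the sets were separate for 0 members, against 0.0938% of all genes. There 0 members differed between the control media (background 0.058%) and 0 between the exposures (0.393%). At an unadjusted p below 0.05 limma gave 5 and 3 of 38, against 9.69% and 11% of all genes. Without both replicate 4 arrays of the chip TiO2 set, PGM1 was lower in ZnO-control medium (-0.52 ± 0.10, adjusted p = 0.00503, background 1.73%) and HK1 higher with ZnO than with TiO2 (0.68 ± 0.17, adjusted p = 0.0491, background 1.32%). The unadjusted counts then were 12 and 7 of 38, against 14.4% and 13.4% of all genes.

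**Figure D3:**
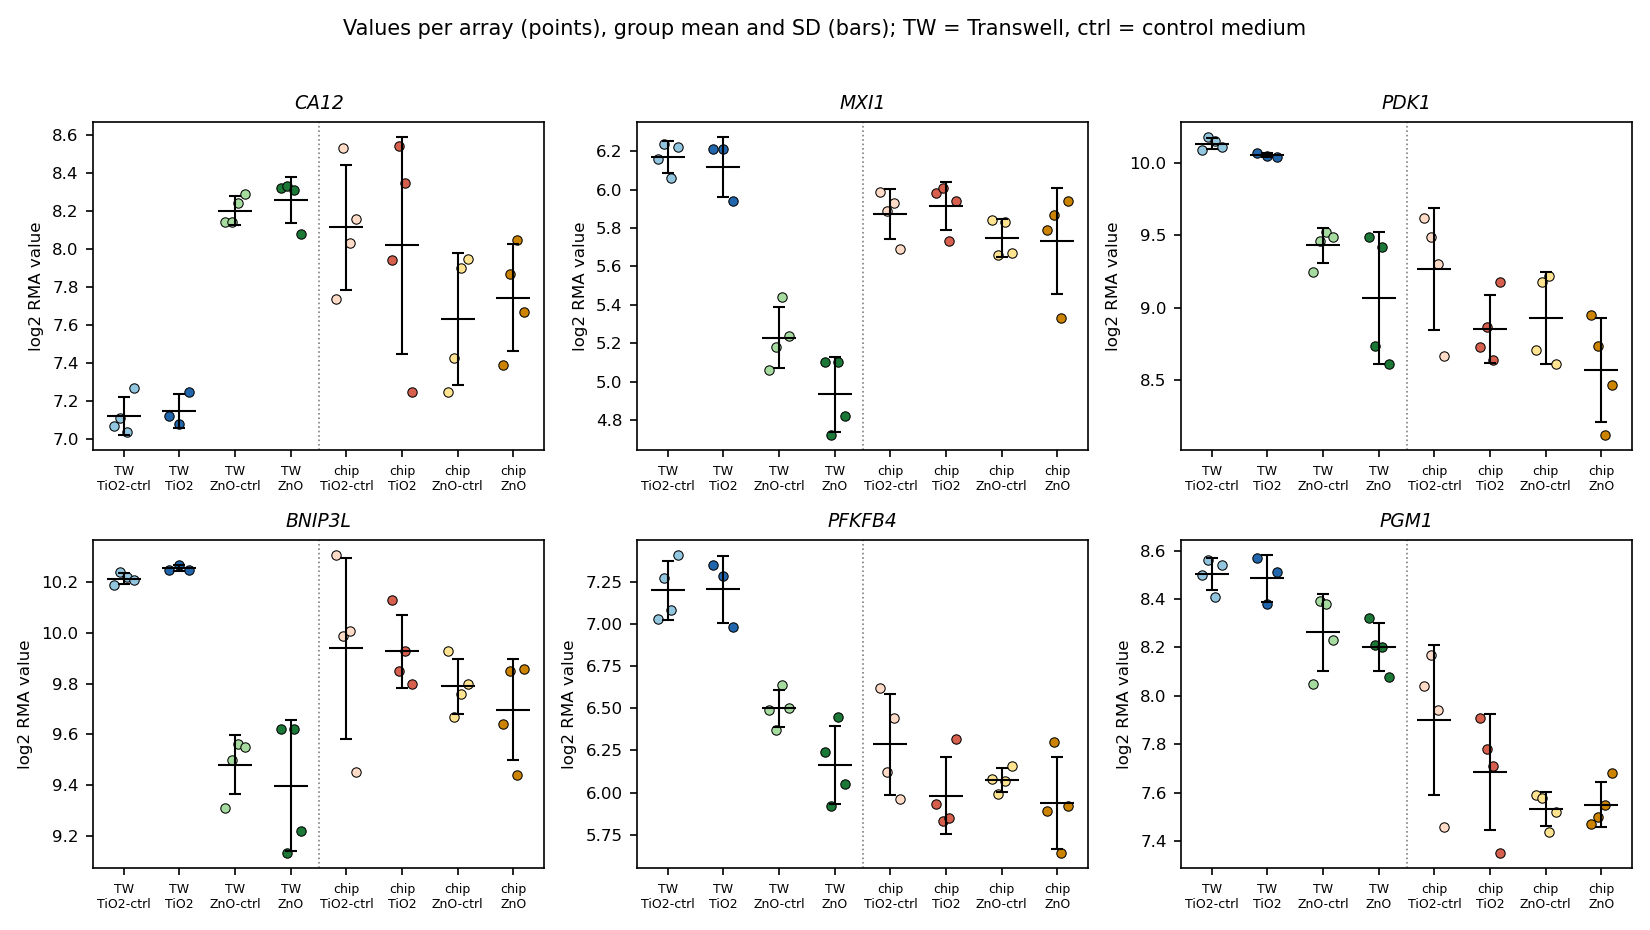
Log2 values of 6 members that separated the 2 sets or were lower in the chip, chosen after their values were seen, 1 point per array in the 8 groups, with group mean and SD. On Transwell CA12 is near 7.12 in the TiO2-control group and 8.20 in the ZnO-control group while MXI1 goes from 6.17 to 5.23, and in the chip both sets overlap.

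Neither nanomaterial changed a member past the threshold within 6 h. In the chip ZnO passed for 0 members and for 0.272% of all genes, and TiO2 for 0 members and 0% of all genes. On Transwell both passed for 0 members and 0% of all genes. The difference of responses between systems passed for 0 members and for 0.00447% of all genes with ZnO, and for 0 and 0% with TiO2. At an unadjusted p below 0.05 limma gave 2 members for ZnO in the chip, 3 for ZnO on Transwell, 3 for TiO2 in the chip and 0 for TiO2 on Transwell, where all genes gave 9.42%, 3.73%, 8.92% and 2.64%. The members' shares in the chip, 5.26% and 7.89%, lay below those of all genes, as did the 0 members for TiO2 on Transwell. For ZnO on Transwell the share was 7.89%, above that of all genes, and all 3 members were lower. Counts this small do not place the members above or below all genes. Each difference of responses had 1 member below this p, against 6.01% of all genes with ZnO and 5.43% with TiO2. The SE of a member's exposure difference was 0.09 to 0.25 in the chip and 0.09 to 0.27 on Transwell, so that small changes were not detectable with these numbers of arrays.

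The members with the smallest p are given as not passing. For ZnO in the chip they were PFKP (-0.39 ± 0.13, adjusted p = 0.231), P4HA2 (0.34 ± 0.13) and PFKL (-0.20 ± 0.11). PFKP read 9.27, 9.58, 9.31 and 9.21 with ZnO against 9.86, 9.63, 9.66 and 9.81 in its control medium, and the groups did not overlap. On Transwell they were NDRG1 (-0.38 ± 0.15), MXI1 (-0.29 ± 0.12) and PFKFB4 (-0.33 ± 0.15). For TiO2 in the chip PFKL (-0.28 ± 0.11), PFKP (-0.26 ± 0.13) and PDK1 (-0.41 ± 0.20) led, and on Transwell HK2 (0.26 ± 0.19), PFKL (0.15 ± 0.12) and HIF1A (-0.10 ± 0.10). PDK1 read 8.73, 8.87, 8.64 and 9.18 with TiO2 in the chip against 9.62, 9.49, 9.30 and 8.67 in its control medium. Replicate 4 was the highest of the exposed arrays and the lowest of the control arrays. Without both replicate 4 arrays of the chip TiO2 set the order changed, and PGK1, PDK1 and PFKFB4 had the smallest p for TiO2 in the chip. PGK1 then passed as lower (-0.51 ± 0.11, adjusted p = 0.0472, background 0.326%), where it had -0.24 with them. Because these 2 arrays were picked for going against this difference, values without them are not independent evidence of a response to TiO2. PDK1 had -0.73 ± 0.21 and PFKFB4 -0.52 ± 0.16 without passing (adjusted p = 0.103 and 0.118), against -0.41 and -0.30 with them. ERO1A went from -0.08 to -0.35 (adjusted p = 0.278). The members below an unadjusted p of 0.05 then numbered 8 of 38, or 21.1%, against 13.4% of all genes. For the difference of responses the smallest p belonged to P4HA2 with ZnO (0.42 ± 0.19) and to PFKL with TiO2 (-0.44 ± 0.16). Without both replicate 4 arrays 8 members instead of 1 lay below an unadjusted p of 0.05 for the TiO2 difference, against 9.32% of all genes, and 0 passed.

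**Figure D4:**
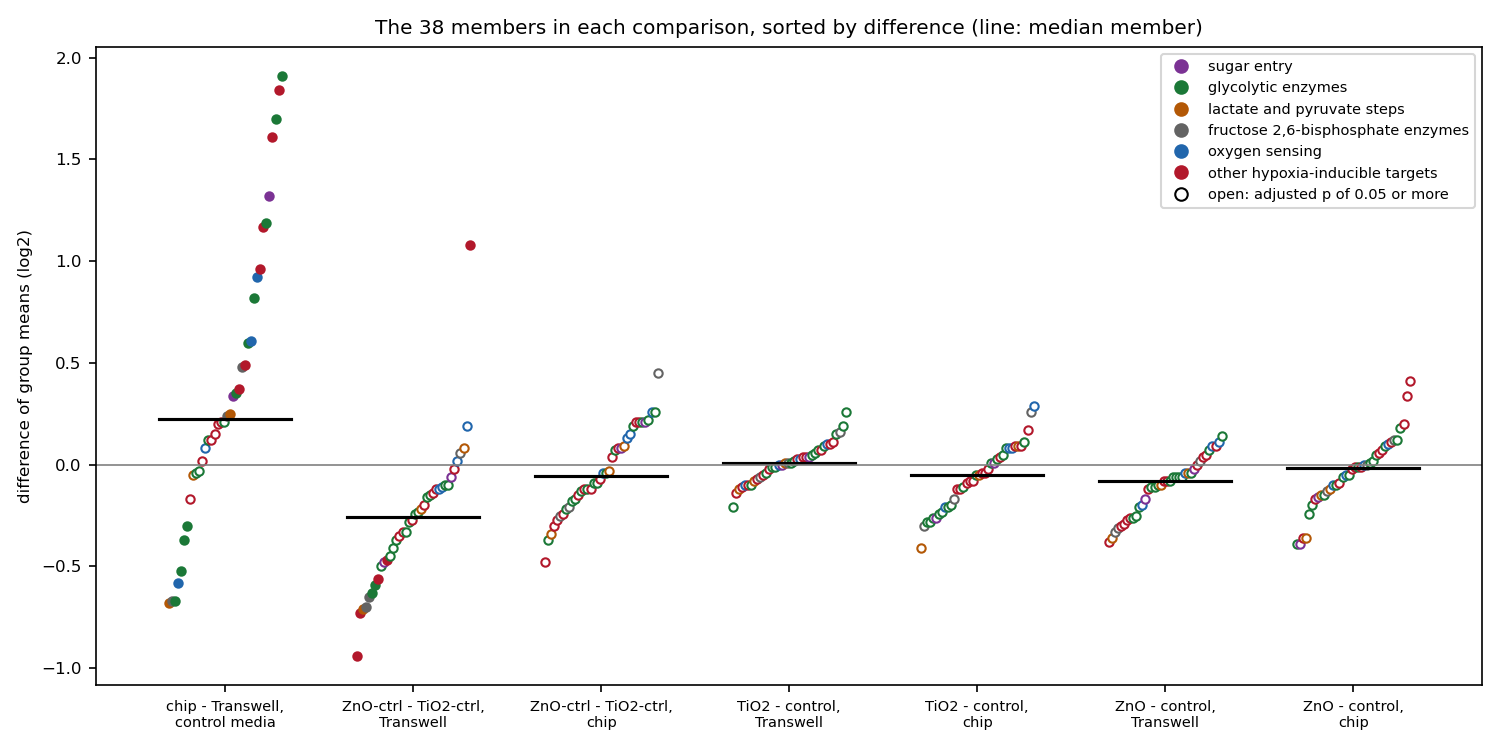
Difference of group means (log2, y axis) of the 38 members in 7 comparisons, sorted within each, coloured by role, with the median member as a line; filled points have an adjusted p below 0.05. Differences between systems reach 1.91 and differences between control media on Transwell 1.08, whereas the exposures stay between -0.41 and 0.41 with no filled point; without both replicate 4 arrays of the chip TiO2 set, not drawn, the lowest is -0.73 (PDK1) and PGK1 passes at -0.51.

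Related genes outside the 41 were counted in the same control comparison. Of 26 other genes of glycolysis and pyruvate handling 7 were higher and 8 lower, with a median of -0.02. Other kinases of pyruvate dehydrogenase went both ways, with PDK4 at 2.11 ± 0.22 and PDK3 at -1.79 ± 0.16, though PDK4 on Transwell lay below every array median and its rise is a lower bound at best, and the hexokinase-like HKDC1 stood at 1.56 ± 0.12. Of 12 other oxygen-sensing genes 1 was higher (ELOB, 0.59) and 2 lower, HIF3A (-0.53) and the asparaginyl hydroxylase HIF1AN (-0.46). Of 34 other HIF targets 13 were higher and 10 lower, with a median of 0.19. The scaffold AKAP12 rose (1.86 ± 0.21) from Transwell control means below every array median, again a lower bound at best, whereas STC1 (-1.89 ± 0.17) and the collagen crosslinker LOX (-1.61 ± 0.25) fell. Between the control media on Transwell 1 of these 34 targets was higher in ZnO-control medium (JMJD6, 0.63) and 5 were lower, STC1 (-0.96), EFNA3 (-0.88) and EFNA1 (-0.77) among them. Of the 10 integrated stress response genes 3 were higher and 1 lower there, and of the 12 epithelial markers 1 was higher, FABP2 (1.36). Their part in the members' differences between the sets was not tested.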

How the data were processed

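RNA from Caco-2 cells was measured in 31 samples, 1 array each. Arrays report no read depth, so the number of arrays limits the precision. The deposited table holds log2 intensities that the authors normalised by RMA, per the submitters' processing notes; its version is not given in the sources used here. This step puts all arrays on 1 distribution, so differences are relative to the other genes of an array. Of 53617 probe sets 23871 named 1 gene, 1842 several and 27904 none in the platform annotation. The brightest 1-gene probe set stood for each of 22395 genes, after 22569 symbols were updated by gene ID. Levels were not compared between genes. No value was missing and no arrays were identical (0 of each); correlations between arrays were 0.951 to 0.993.

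Groups came from the labels. The 8 groups were fitted in 1 model with limma 3.58.1 in R 4.3.3 (residual degrees of freedom 23, prior 4.77). Differences were tested two-sided by moderated statistics and adjusted by Benjamini-Hochberg over all genes, with a threshold of 0.05. On simulated data the fit was tested with genes changed by 1 and 2 on the log2 scale. The main fit did not pair samples by replicate number. Within a system and set, deviations from the group mean of same-numbered exposed and control samples correlated at -0.126 to 0.059. Same-numbered samples were not compared between systems or sets, so a pairing there was not tested. The members and lists were chosen with earlier results of these data known.

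Members were named by a rule: up to 10 with the largest rise and 10 with the largest fall per comparison among those passing, or the 3 with the smallest p where fewer than 3 passed. Values per array were due for the 6 members with the largest difference between systems. The per-array values of CA12, MXI1, PDK1, BNIP3L, PFKFB4, PGM1, ANKRD37, EPAS1 and EGLN1 were added after their values were seen. Alternatives were other variance priors, array weights, the replicate number as a block, only the groups compared, the mean of probe sets, a filter on low values, median centring, quantile normalisation and arrays left out. Promoter letters came from RefSeq (GRCh38.p14).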

Additional observations from a re-analysis of the deposited data

Results flagged for a closer look

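In 14 of the members with values per array, though not in all of them, 98 groups of 4 arrays were examined for a single array far from the others. Of these, 3 groups held one, where chance sets apart about 1 in 20. ENO2 in chip ZnO replicate 3 read 5.98, with the nearest of the others at 6.27. CA12 in Transwell ZnO replicate 4 read 8.08, with the nearest at 8.31. EGLN1 in chip ZnO-control replicate 1 read 8.60, with the nearest at 8.25.

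For 3 members the difference between chip and Transwell was itself different between the control media by limma. It was larger in ZnO-control medium for PFKP (0.81, adjusted p = 0.0115) and MXI1 (0.82, adjusted p = 0.00868) and smaller for CA12 (-1.56, adjusted p = 0.00259). For all 3 the Transwell groups differed between the media past the threshold and the chip groups did not.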

How the results depend on the processing

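With 1 array left out, 18 to 20 members were higher and 7 lower in the chip in control media, and the other settings gave 18 to 20 and 7. The members that differed between control media on Transwell numbered 6 to 10 with 1 array left out (main 10), lowest without Transwell TiO2-control replicate 3, and 8 to 12 under the other settings. Between control media in the chip, 0 to 1 passed with 1 array left out, the 1 without chip TiO2-control replicate 4. Without both chip replicate 4 arrays of the TiO2 set 1 member passed there and 1 for TiO2 in the chip. The exposure counts otherwise stayed at 0. With the replicate number as a block 18 members were higher and 7 lower, 3 differed in their system difference and 9 between control media on Transwell. HIF1A turned from -0.10 to 0.04 for TiO2 on Transwell with the mean of probe sets, not passing either way (adjusted p = 1), and the cause was not tested. For named members with arrays left out, 3911 values kept their direction and side of the threshold, 86 no longer passed and 3 newly passed; under other settings 1108 kept both, 16 no longer passed and 1 reversed. EGLN3 on Transwell lay near background, where arrays understate differences.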
